A study of Mus musculus with 24 samples.

Results

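The let-7 microRNAs other than the numbered copies of let-7a, let-7c and let-7f, together with their relative mir-98, were followed through BV2 microglial cells and the vesicles these cells shed. They were taken by name from the deposited tables, as every let-7 row that is not a copy of let-7a, let-7c or let-7f, plus mir-98. This gave 8 precursors (mmu-let-7b, mmu-let-7d, mmu-let-7e, mmu-let-7g, mmu-let-7i, mmu-let-7j, mmu-let-7k and mmu-mir-98, written without the species prefix from here on), of 14 in the let-7 and mir-98 family and of 1187 listed. BV2 is an immortalised line of mouse microglia, the resident macrophages of the brain, and extracellular vesicles (EVs) are membrane-bound particles that carry RNA and protein out of the cell. Small RNA was counted in cells and in EVs of cultures given, for 72 h, the bacterial product LPS, which acts through Toll-like receptor 4, at 100 ng/mL, the anti-inflammatory cytokine IL-10 at 50 ng/mL or the cytokine TGF-β at 50 ng/mL. Control cultures were the fourth condition, which makes 8 groups with 3 libraries each. All groups come from a single cell line. Nothing in the labels ties a group's 3 libraries to separate cultures, so p-values here cover the variation among these libraries, and that variation may be technical.

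A let-7 precursor is cut to a short mature product from the 5′ arm of its hairpin, whose bases 2 to 8, the seed, pair with target messenger RNAs. Family members therefore share most of their targets, which include mRNAs of growth-promoting factors such as Hmga2 and Ras proteins, and their maturation is blocked by the protein Lin28. In macrophages of the mouse, let-7e has been described as a repressor of Toll-like receptor 4 and miR-98 as a repressor of Il10, and in human biliary epithelium let-7i as a repressor of Toll-like receptor 4. Free let-7b has been described as a ligand of Toll-like receptor 7. The mature 5′ products of the 8 precursors are shown because the results below turn on how little some of them differ. They are RefSeq's (build GRCm38.p6), read 5′ to 3′ with the seed in capitals, and all 8 members had an entry.
let-7b: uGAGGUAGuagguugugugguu
let-7d: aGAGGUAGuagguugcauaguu
let-7e: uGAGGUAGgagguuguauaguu
let-7g: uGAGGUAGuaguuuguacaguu
let-7i: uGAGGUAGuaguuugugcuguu
let-7j: uGAGGUAUuaguuugugcuguuau
let-7k: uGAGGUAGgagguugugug
miR-98: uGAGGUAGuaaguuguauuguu

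The seed GAGGUAG was shared by 7 of the 8, and let-7j carried GAGGUAU. In what follows a substitution gives the base of the second-named product, its position counted from 1 at the 5′ end, and the base of the first-named one. let-7j differs from let-7i by G8U alone over the 22 bases compared, a change inside the seed, and has 24 bases in all. let-7e differs from let-7a by U9G and let-7b from let-7c by A17G, each a single change in 22 bases outside the seed. let-7k, at 19 bases, differs from let-7b by U9G. The remaining members stood further from the family: let-7g was 2 bases from let-7i and from let-7a, let-7d was 2 bases from let-7a, and miR-98 was 2 bases from let-7a and let-7c.

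Among all other mature mouse microRNAs in the RefSeq table, outside the let-7 family, 1 product carries GAGGUAG and 1 carries GAGGUAU. They are shown as the remaining products that could pair through the same seeds.
miR-1961: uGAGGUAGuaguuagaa
miR-202-3p: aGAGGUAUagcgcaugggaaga
The precursor mir-202 had 1 count in the 24 libraries. mir-1961 was scarce. In cells it had 24, 34 and 36 counts after LPS, 1, 2 and 0 after IL-10, 0, 3 and 0 after TGF-β, and 4, 8 and 4 in controls. The filter on low counts asks for about 10 counts at the median depth in at least 3 libraries. mir-1961 reached this in LPS cells alone, so it was tested through the group where it was highest. Its log2 difference from control, 3.60 ± 0.45 (SE; edgeR), is thus a description. In EVs it reached 1, 4 and 17 counts after LPS and 2 or fewer in every other library.

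The 8 hairpins lie at scattered loci (RefSeq hairpins, GENCODE genes, GRCm38.p6). let-7b (chr15:85707319-85707403, in an exon of Lncppara) is 621 bases from let-7c-2. let-7d (chr13:48536012-48536114, in an exon of the long non-coding RNA 6720427I07Rik) is 1714 bases from let-7f-1 and 2064 bases from let-7a-1. let-7e (chr17:17830352-17830444, in an intron of Spaca6) is 367 bases from mir-125a. mir-98 (chrX:151913214-151913321, in an intron of the ubiquitin ligase gene Huwe1) is 785 bases from let-7f-2. The other members have no annotated microRNA within 10000 bases: let-7g (chr9:106178840-106178927) sits in an intron of Wdr82, let-7i (chr10:122985640-122985724) in an exon of D630033A02Rik, and let-7j (chr3:140028249-140028370) and let-7k (chr5:147283189-147283298) in no annotated gene.

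Totals were 185400 to 409969 counts per library in cells but 15071 to 28727 in EVs, so a count of 0, read as at most 3 counts, allowed up to 0.00162% of a cell library and 0.0199% of an EV library. These limits cover counting error only, since PCR copies were not told apart. The 5 myeloid marker precursors (mir-223, mir-142a, mir-146a, mir-155 and mir-511) all had counts in every group of cells. Together they took 4.11 to 4.75% of counts after LPS and 0.410 to 0.591% in the other groups, while neuronal markers reached at most 0.00428%. The LPS share was mostly mir-146a, with 26113 summed counts in LPS cells and 1095 in control cells. In that order mir-155 had 196 and 24, mir-142a 1739 and 3113, mir-223 81 and 267, and mir-511 11 and 81. Mean library totals were 208518 counts in LPS cells and 329500 in control cells. In EVs 2 or 3 of the 5 myeloid markers had counts. In control EVs the highest share of a library was 0.492% for neuronal, 0.170% for oligodendrocyte, 0.151% for muscle and 0.127% for red-cell markers. Each list was taken on its own, so these need not fall in 1 library. The neuronal share sums numbered copies, each with 18 summed counts for mir-124 and 14 for mir-9 in control EVs. The red-cell counts there were of mir-486a (12) and mir-144 (11), with 0 of mir-451a and of mir-486b. Treated EVs had at most 0.0257% of neuronal, 0.0192% of oligodendrocyte, 0.130% of muscle and 0.141% of red-cell markers. The part of these in the values below was not tested. In the same EVs mir-6236, at 0.796 ± 0.0186% in control cells, took 57.2 ± 7.82% of counts after LPS and 74.5 ± 1.17% in controls (SD, n = 3 each). IL-10 EV library 1 stood apart from the other IL-10 EV libraries, with 61.2% mir-6236 and 9.33% of its counts from the family, against 2.53% in the IL-10 library with the least.

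The 8 members together took 5.15 ± 0.117% of the counts in cells after LPS, 7.20 ± 0.257% after IL-10, 6.97 ± 0.332% after TGF-β and 6.77 ± 0.159% in controls (SD, n = 3 each). In EVs the corresponding shares were 1.48 ± 0.476% after LPS, 0.722 ± 0.563% after IL-10, 0.587 ± 0.0955% after TGF-β and 0.792 ± 0.216% in controls. A share moves with the rest of its library, in which mir-5099 made up 21.2 ± 1.66% of the counts of LPS cells, against 12.7 ± 1.53% in control cells. Of the family's own counts the members made up a minor part, 12.4 to 13.7% in cells and 12.2 to 20.2% in EVs. The family total takes let-7a, let-7c and let-7f through both numbered copies, whose counts were near equal. Over control cells let-7a-1 had 113043 summed counts and let-7a-2 had 112183. If shared reads were counted at each copy, which was not tested, the members' part would be larger. Bulk small RNA cannot tell fewer cells expressing a precursor from less of it in each cell.

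Levels in cells ranged widely between members. They are given as normalised CPM, counts scaled to a common library total and by edgeR's TMM factors, of products that are 22 bases long except let-7j and let-7k, and are not divided by length. In control cells let-7e was highest at 20124 ± 2015 (SD, n = 3), followed by let-7d at 14400 ± 1147 and let-7b at 14131 ± 1778, which did not differ beyond their spread. let-7g followed at 5027 ± 383, mir-98 at 2249 ± 257 and let-7i at 1883 ± 101, and the libraries of the last 2 overlapped. let-7j stood at 1305 ± 98.1 and let-7k at 124 ± 19.9. After TGF-β let-7i stood above mir-98, at 3144 ± 306 against 2404 ± 205 normalised CPM.

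**Figure D1:**
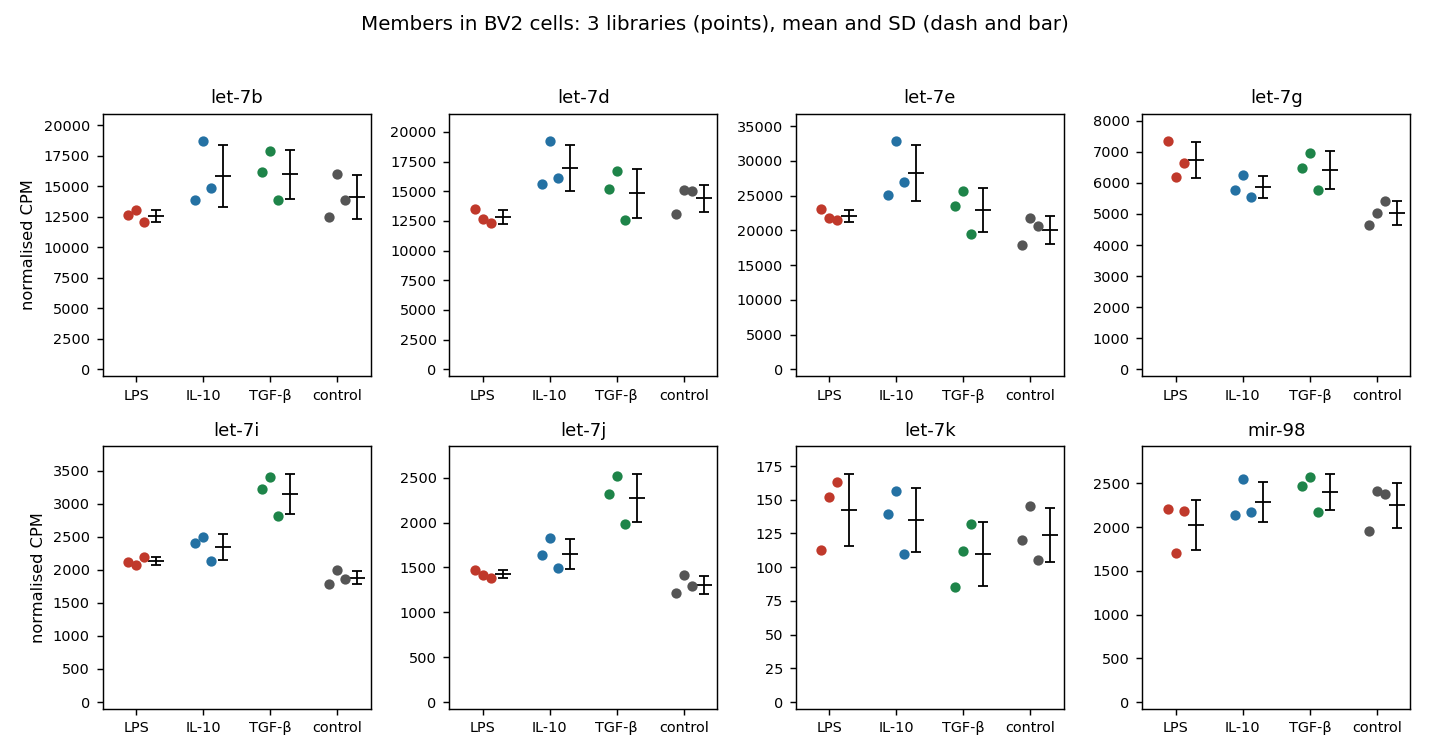
Normalised CPM of the 8 members in BV2 cells (vertical axes, each from 0) after LPS, IL-10, TGF-β and in controls; points are the 3 libraries, dashes their mean and bars the SD. let-7i and let-7j stand highest after TGF-β, with no overlap with any other group, and let-7g is lowest in controls.

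The clearest change in cells was in let-7i and let-7j after TGF-β. let-7i had 3219, 3406 and 2808 normalised CPM in TGF-β cells, against 1791, 1990 and 1866 in control cells. let-7j had 2316, 2520 and 1987 normalised CPM in TGF-β cells, against 1216, 1410 and 1289 in control cells. The groups did not overlap for either, as for 25.9% of all precursors tested. let-7i rose by 0.74 ± 0.13 on the log2 scale, or 1.67-fold (SE; edgeR quasi-likelihood test, adjusted p = 0.00035), and let-7j by 0.80 ± 0.13, or 1.74-fold (edgeR, adjusted p = 0.00024). These 2 of 8 members were the only ones called after TGF-β, where 6.56% of the 259 precursors tested were called. Both calls held under all 10 other settings and when any of the 6 libraries was left out, with log2 changes of 0.52 to 0.74 for let-7i and 0.58 to 0.80 for let-7j over the settings. The lower ends were on the scale of the family total, where the comparison is with the other let-7 products alone.

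The other treatments left these 2 precursors nearer the control level. After LPS let-7i had 2116, 2079 and 2191 normalised CPM and after IL-10 2402, 2502 and 2129. Against TGF-β, LPS cells had 0.56 ± 0.13 less let-7i on the log2 scale (log2 change -0.56; edgeR, adjusted p = 0.0016) and less let-7j (log2 change -0.67 ± 0.14; edgeR, adjusted p = 0.00054). In that comparison 2 of 8 members were called, against 32% of all precursors tested, and both calls held under all 10 settings and 6 omissions. let-7b did not pass there (log2 change -0.35 ± 0.14; edgeR, adjusted p = 0.072), but was called lower in LPS cells in 9 of 10 other settings. IL-10 cells also had less let-7i (log2 change -0.42 ± 0.13; edgeR, adjusted p = 0.028) and less let-7j (-0.46 ± 0.13; edgeR, adjusted p = 0.022) than TGF-β cells, where 14.7% of precursors were called. The let-7i call was lost with no filter on low counts (edgeR, adjusted p = 0.059), and both were lost when IL-10 library 3, TGF-β library 1 or TGF-β library 2 was left out, at adjusted p of 0.055 to 0.15. Against control, IL-10 cells differed by 0.32 ± 0.13 in let-7i (edgeR, adjusted p = 0.12) and LPS cells by 0.18 ± 0.13 (edgeR, adjusted p = 0.32), neither past the threshold.

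let-7j did not vary apart from let-7i. Within a library its count was 0.633 to 0.740 of the let-7i count over the 12 cell libraries (median 0.700), with group means of 0.671 ± 0.0342 after LPS, 0.705 ± 0.0240 after IL-10, 0.722 ± 0.0163 after TGF-β and 0.693 ± 0.0149 in controls (SD, n = 3 each). The log2 ratio had an SD of 0.0588 over these libraries, below the 0.0900 that counting alone gives for independent counts of this size. For the numbered copies with identical mature products, the ratios in the same libraries were 0.988 to 0.993 for let-7a-2 over let-7a-1, 1.01 to 1.02 for let-7c-2 over let-7c-1 and 0.963 to 0.978 for let-7f-2 over let-7f-1. The sources used here do not say how reads matching several precursors were counted. The values of let-7i and let-7j are therefore uncertain as separate measurements, and whether any read came from the let-7j locus was not tested.

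let-7e likewise kept step with its nearest relative in sequence. Its count was 0.195 to 0.208 of the let-7a-1 count over the 12 cell libraries, with an SD of the log2 ratio of 0.0296 against 0.0199 from counting alone, the steadiest partner of let-7e among the 13 other family precursors. The neighbours that share its cluster were nearly absent. mir-99b, the neighbour on the other side of let-7e, had 0 counts in all 24 libraries, and mir-125a had 1 count in the cells and 13 in the EVs, while let-7e had 85114 in the cells. The floor of 3 counts thus lies far below let-7e for both neighbours in cells. Which locus the let-7e reads came from was not tested.

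The remaining members were less tied to any relative. The steadiest partners were let-7c-1 for let-7b (SD of the log2 ratio 0.0902), let-7c-2 for let-7d (0.0705), let-7b for mir-98 (0.141), let-7f-2 for let-7g (0.211) and let-7e for let-7k (0.348), over the same 12 libraries. let-7g, 2 bases from let-7i, moved separately from it. Its ratio to let-7i was 2.98 to 3.47 in LPS cells and 2.01 to 2.05 in TGF-β cells, against 2.52 to 2.90 in control cells, and neither range touches that of the controls.

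**Figure D2:**
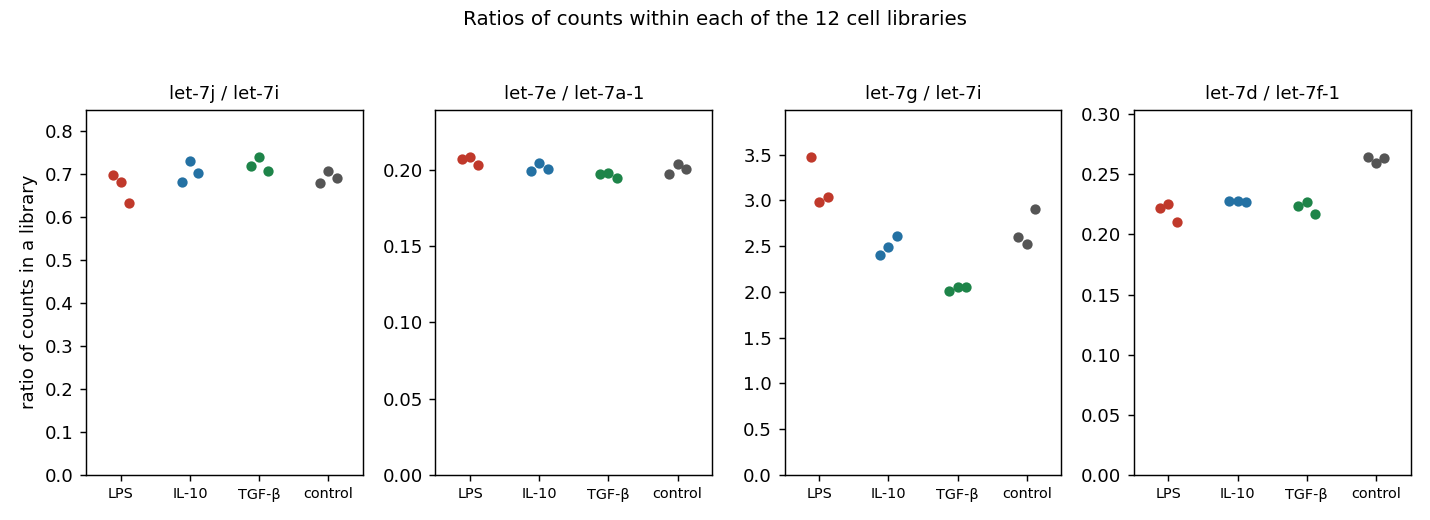
Ratios of counts within each of the 12 cell libraries (vertical axes from 0) for 4 pairs of family precursors, by treatment; each point is 1 library. let-7j over let-7i and let-7e over let-7a-1 are nearly level, let-7g over let-7i is highest after LPS and lowest after TGF-β, and let-7d over let-7f-1 is higher in controls than in any treated library.

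After LPS the member that rose in cells was let-7g, which had 7343, 6192 and 6655 normalised CPM in LPS cells, against 4648, 5019 and 5413 in control cells. The 2 groups did not overlap, as for 47.5% of all precursors tested, and the change was 0.42 ± 0.13 on the log2 scale, or 1.34-fold (edgeR, adjusted p = 0.018). It was 1 of 8 members called, against 32% of all precursors tested, and the other 7 had log2 changes of -0.17 to 0.19. Scaling by library totals alone left no difference in let-7g (log2 change 0.00; edgeR, adjusted p = 0.98) and moved the median of all precursors by more than 0.1, to -0.32, against 0.09 with TMM factors, while on the family scale let-7g differed by 0.35 (edgeR, adjusted p = 0.0058). With no filter on low counts the call was lost at a log2 change of 0.23 (edgeR, adjusted p = 0.32). It was also lost without LPS library 1 or 3 or control library 1 or 2, with log2 changes of 0.30 to 0.40 and adjusted p of 0.055 to 0.12. TGF-β cells had 6481, 6975 and 5759 normalised CPM of let-7g, above every control library, at a log2 change of 0.35 ± 0.13 that did not pass (edgeR, adjusted p = 0.10).

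After IL-10 the member that rose was let-7e, the most abundant of the 8. It had 25078, 32847 and 26967 normalised CPM in IL-10 cells, against 17897, 21819 and 20657 in control cells, with no overlap, as for 32% of all precursors tested. The change was 0.49 ± 0.14 on the log2 scale, or 1.41-fold (edgeR, adjusted p = 0.034), 1 of 8 members where 7.72% of precursors were called. All 8 members had a log2 change above 0, with a median of 0.23 against 0.05 over all precursors tested. Of the 6 copies of let-7a, let-7c and let-7f, 4 were called higher. These copies come in pairs with identical mature products and near-equal counts, so their calls are not separate measurements. Relative to the family total let-7e differed by 0.06 (edgeR, adjusted p = 0.17). The call was lost without IL-10 library 2 or 3 or control library 1 or 3, at adjusted p of 0.070 to 0.16. LPS cells had less let-7e than IL-10 cells (log2 change -0.36 ± 0.14; edgeR, adjusted p = 0.042) and less let-7d (-0.40 ± 0.14; edgeR, adjusted p = 0.024), 2 of 8 members against 44.4% of all precursors. let-7b missed the threshold (-0.33 ± 0.14; edgeR, adjusted p = 0.070) and was called lower in LPS cells in 8 of 10 other settings. The calls of let-7e and let-7d ended on the family scale, where let-7e differed by 0.01 and let-7d by -0.04, and without LPS library 3 or IL-10 library 2, and that of let-7e also without LPS library 1 or IL-10 library 3.

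**Figure D3:**
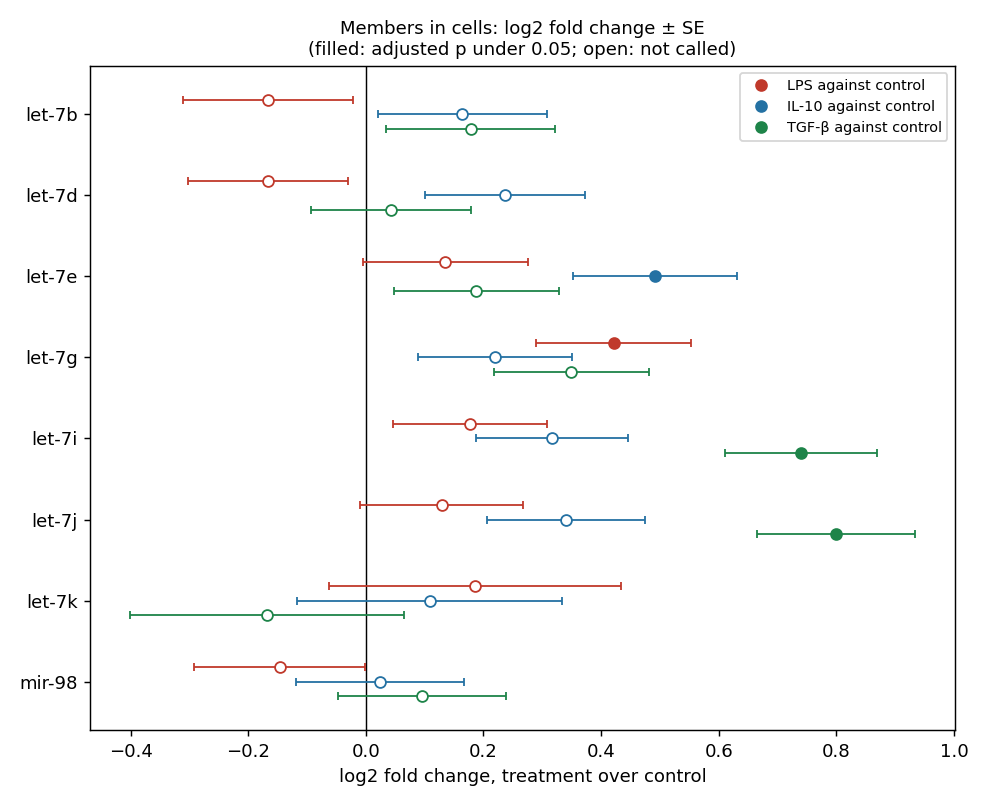
Log2 fold change of the 8 members in cells after LPS, IL-10 and TGF-β over control (horizontal axis; bars are the SE), filled where the adjusted p was under 0.05. The filled points are let-7g after LPS (0.42), let-7e after IL-10 (0.49) and let-7i and let-7j after TGF-β (0.74 and 0.80).

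let-7b, let-7d, let-7k and mir-98 passed in no treatment against control in cells with TMM factors. The 95% intervals of their log2 changes, from the SE under a normal approximation, were -0.45 to 0.12, -0.43 to 0.10, -0.30 to 0.67 and -0.43 to 0.14 after LPS, in that order. let-7b had 12642, 13069 and 12071 normalised CPM in LPS cells, against 12484, 16016 and 13891 in control cells. let-7d had 13532, 12625 and 12337 in LPS cells, against 13076, 15095 and 15029 in control cells. mir-98 had 2208, 1699 and 2180 in LPS cells, against 1953, 2411 and 2382 in control cells, and let-7k stayed between 85.4 and 163 normalised CPM in all 12 libraries. LPS and control cells overlapped for each of them. In other settings let-7d was called lower after LPS in 5 of 10, let-7b in 4 of 10 and mir-98 in 1 of 10 (library totals). Over the 10 settings the log2 changes were -0.58 to -0.16 for let-7d and for let-7b, and -0.56 to -0.14 for mir-98. After IL-10 let-7d had 15595 to 19223 normalised CPM, above the 13076 to 15095 of control cells with no overlap (log2 change 0.24 ± 0.14; edgeR, adjusted p = 0.27).

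The make-up of the family itself changed for let-7d, which gave a smaller part of the family's counts in treated cells. Its share of the family was 2.87, 2.84 and 2.75% in LPS cells, 2.95, 2.87 and 2.88% in IL-10 cells and 2.92, 2.96 and 2.88% in TGF-β cells, against 3.34, 3.23 and 3.37% in control cells. No treated library reached a control library. On the scale of the family total, let-7d had a log2 change of -0.23 in LPS cells, -0.19 in IL-10 cells and -0.18 in TGF-β cells (edgeR, adjusted p = 0.0013, 0.010 and 0.014), where 30.1, 23.2 and 13.5% of precursors were called on that scale. Of those calls 48 were higher and 30 lower for LPS, 4 and 56 for IL-10, and 5 and 30 for TGF-β. A fall on that scale after IL-10 or TGF-β is thus shared with most precursors called. With TMM factors the direction differed between treatments, at -0.17 ± 0.14 after LPS, 0.24 ± 0.14 after IL-10 and, for TGF-β, 0.04 ± 0.14, with 0 of the 3 past the threshold. The 3 comparisons share their control libraries. Relative to the let-7f-1 count let-7d was lower too, at 0.211 to 0.228 in the 9 treated libraries, against 0.260 to 0.264 in control cells. let-7d and let-7f-1 are annotated in the same non-coding transcript. However, let-7f-1 and let-7f-2 share a mature product, and let-7f-2 had 0.963 to 0.978 of the let-7f-1 count in the cell libraries. The let-7f-1 count therefore cannot be read as the output of that cluster, and which locus its reads came from was not tested.

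let-7b and mir-98 held smaller shares of the family after some treatments. let-7b had 2.77 ± 0.149% of the family after LPS and 2.70 ± 0.0857% after IL-10, against 3.24 ± 0.164% in control cells (SD, n = 3 each), with log2 changes of -0.23 and -0.27 on the family scale (edgeR, adjusted p = 0.0070 and 0.0091). TGF-β cells kept 3.15 ± 0.0411%. mir-98 had 0.446 ± 0.0554% of the family in LPS cells, 0.392 ± 0.0116% in IL-10 cells and 0.476 ± 0.0201% in TGF-β cells, against 0.516 ± 0.0176% in control cells. Of these the IL-10 value passed (log2 change -0.40; edgeR, adjusted p = 0.023), and those after LPS and TGF-β did not (edgeR, adjusted p = 0.16 and 0.61). Over all precursors, the calls on the family scale after IL-10 were 4 higher and 56 lower, and after LPS 48 higher and 30 lower. mir-98 had 0.0312 to 0.0387 of the count of its neighbour let-7f-2 in the 9 treated libraries, against 0.0408 to 0.0431 in control cells. The let-7f-2 count shares its mature product with let-7f-1, so it cannot be read as the output of the mir-98 cluster.

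Outside the family, the precursors whose 4 group means in cells lay closest to those of let-7i were mir-350 and mir-872, with root mean square differences of 0.0528 and 0.0625 in log2 normalised CPM after centring, among 245 candidates. The same 2 were closest to let-7j, at 0.0783 and 0.0979. mir-467e and mir-16-2 were closest to let-7g, mir-27a and mir-8114 to let-7e, mir-374b and mir-467a-10 to let-7b, mir-183 and mir-669c to let-7d, mir-425 and mir-466b-3 to let-7k, and mir-26a-1 and mir-669a-5 to mir-98. With 4 means per precursor and this many candidates, such likeness is a description. Of the 6 cluster partners of let-7 hairpins (mir-99a, mir-99b, mir-100, mir-125a, mir-125b-1 and mir-125b-2), 2 were tested in cells, the copies of mir-125b. They passed the filter through control cells, with 14, 22 and 17 counts each, and no treated group reached it as a whole. Both had 4, 5 and 3 counts after LPS, so they are not separate measurements and their values are a description. Against control 0 of these 2 passed for any of the 3 treatments (edgeR). Both had an unadjusted p under 0.05 for LPS and for TGF-β, as had 115 and 62 of all 259 precursors tested.

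In EVs the members were few, and 4 of the 8, let-7b, let-7d, let-7e and let-7g, passed the filter on low counts. Of these 4, let-7g was the one whose treated EVs all stood below the controls with TMM factors. The filter asks for about 10 counts at the median depth, in at least 3 libraries. let-7g reached this in all 3 control EV libraries but in no treated group as a whole. It was thus tested through the group where its share was highest, and its place below the controls is a description. It had 9, 23 and 36 counts in LPS EVs, 8, 7 and 1 in IL-10 EVs and 9, 2 and 5 in TGF-β EVs, against 14, 17 and 29 in control EVs. The LPS EV libraries were deeper, at 23943 to 28727 counts against 15869 to 18047 in control EVs, so the same values as normalised CPM were 247, 429 and 625 in LPS EVs, 306, 663 and 117 in IL-10 EVs and 830, 154 and 438 in TGF-β EVs, against 896, 1443 and 1640 in control EVs. All 9 treated libraries were below all 3 controls on this scale, which rests on TMM factors of 1.52 to 2.23 in LPS EVs and 0.735 to 0.984 in control EVs. By library totals alone LPS EVs overlapped the controls, at 376, 801 and 1392 CPM in LPS EVs, against 882, 1061 and 1607 CPM in control EVs. With factors from all 24 libraries TGF-β EV library 1, at 1846 normalised CPM, lay above the lowest control EV library, at 1828. Of all precursors tested in EVs, 45.1% had no overlap for LPS, 9.86% for IL-10 and 15.5% for TGF-β. The log2 changes were -1.59 ± 0.73 for LPS, -1.85 ± 0.78 for IL-10 and -1.49 ± 0.77 for TGF-β, and 0 of them passed (edgeR, adjusted p = 0.20, 0.62 and 0.60).

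None of the 4 tested members was called in EVs after LPS, IL-10 or TGF-β, where 18.3, 0 and 4.23% of the 71 precursors tested were called (edgeR). At an unadjusted p under 0.05 the counts were 1, 1 and 0 of 4, against 25.4, 7.04 and 7.04% of all precursors, and DESeq2 called 0 in each. The 1 member after LPS and after IL-10 was let-7g. It was tested through the control EVs, where its share was highest, so these 2 counts are a description. The 3 comparisons between treatments in EVs called 0 members too, with 23.9% of precursors called for LPS against IL-10, 31% for LPS against TGF-β and 0% for IL-10 against TGF-β (edgeR). At an unadjusted p under 0.05 there were 0 of 4 in each, against 36.6, 35.2 and 4.23% of all precursors, and DESeq2 called 0. let-7e had 75, 140 and 123 counts in LPS EVs, 76, 15 and 13 in IL-10 EVs and 23, 18 and 25 in TGF-β EVs, against 35, 25 and 35 in control EVs. let-7d had 88, 81 and 165 counts in LPS EVs, 77, 15 and 9 in IL-10 EVs and 14, 25 and 36 in TGF-β EVs, against 29, 16 and 36 in control EVs. let-7b had 54, 124 and 153 counts in LPS EVs, 69, 17 and 27 in IL-10 EVs and 62, 26 and 22 in TGF-β EVs, against 42, 23 and 55 in control EVs. In each of these 3 the highest IL-10 library was library 1, the one that stood apart.

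The scarcest members were near the floor in EVs. mir-98 had 8, 7 and 7 counts in LPS EVs, 1, 3 and 0 in IL-10 EVs and 1, 1 and 2 in TGF-β EVs, against 1, 1 and 1 in control EVs. As shares these are 0.0283 ± 0.00464% of LPS EV counts and 0.00603 ± 0.000422% of control EV counts (SD, n = 3 each). The whole family's share was also higher, at 10.4 ± 2.44% in LPS EVs against 4.36 ± 0.789% in control EVs. With TMM factors mir-98 stood at 157 ± 54.1 normalised CPM in LPS EVs and 68.5 ± 14.7 in control EVs. On that scale the 2 groups did not overlap, as for 45.1% of the precursors tested in EVs. The mir-98 counts were too low for the test across precursors. let-7i had 13, 11 and 19 counts in LPS EVs, 8, 2 and 1 in IL-10 EVs and 1, 2 and 2 in TGF-β EVs, against 12, 2 and 8 in control EVs. let-7j had 9, 6 and 14 counts in LPS EVs, 4, 1 and 1 in IL-10 EVs and 1, 1 and 1 in TGF-β EVs, against 9, 2 and 4 in control EVs. TGF-β EVs thus had the fewest counts of both over 3 libraries, at 5 of let-7i and 3 of let-7j, while TGF-β cells had the highest normalised levels. IL-10 EVs had 11 and 6, of which 8 and 4 lie in IL-10 EV library 1, the one that stood apart. The other IL-10 EV libraries were like the TGF-β ones, so these counts near the floor do not set TGF-β EVs apart from IL-10 EVs. let-7k had 0 to 2 counts in 11 of the EV libraries and 11 in IL-10 EV library 3.

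**Figure D4:**
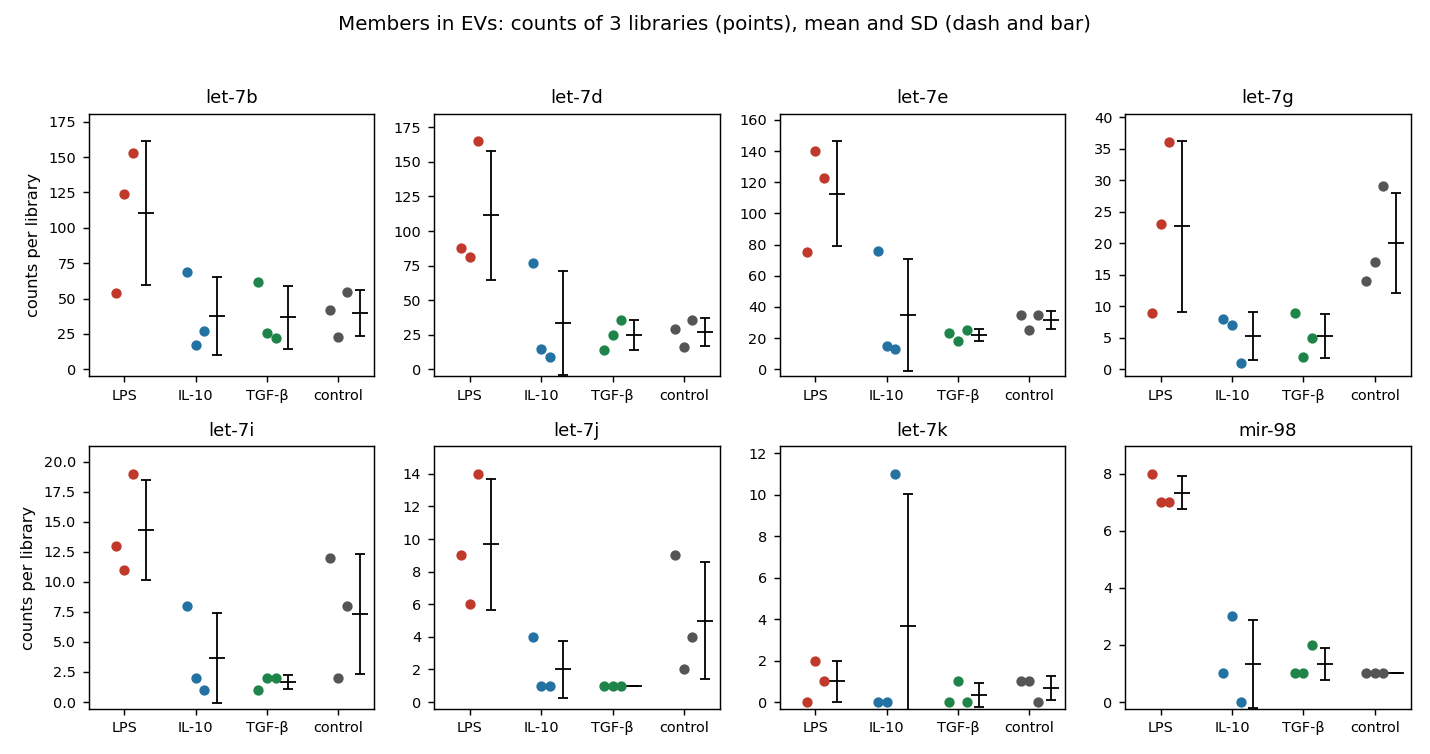
Counts of the 8 members in each EV library (vertical axes; dashes are means, bars the SD of 3 libraries, not drawn below the axis), after LPS, IL-10, TGF-β and in controls. The LPS libraries are deeper than the others; let-7g is at 14 to 29 counts in controls, mir-98 is at 7 or 8 counts after LPS and at 3 or fewer elsewhere, and the 11 counts of let-7k lie in 1 library.

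EVs were set against the cells of the same treatment in a fit over all 24 libraries, to ask which members are rarer in vesicles than in cells. The median precursor differed by 0.00 after LPS, -0.80 after IL-10, -0.74 after TGF-β and -0.54 in controls on the log2 scale, and 30.7, 43.2, 43.2 and 38.6% of the 280 precursors tested were called. mir-98 was lower in EVs in every condition, with log2 changes of -1.38 ± 0.35 after LPS, -2.70 ± 0.54 after IL-10, -2.37 ± 0.55 after TGF-β and -3.25 ± 0.57 in controls (edgeR, adjusted p = 0.0035, 0.00022, 0.00091 and 4.2e-05). In controls it rests on 3 counts in the EVs and 2533 in the cells, a ratio of 0.104 with a 95% counting interval of 0.0215 to 0.305 that leaves out the spread between libraries. The control call held under all 10 settings and all 6 omissions, at log2 changes of -5.40 to -1.91 over the settings. The calls for the treatments held under fewer, 9 of 10 settings for LPS, 8 for IL-10 and 6 for TGF-β, each lost on the family scale (log2 changes -0.71, -1.21 and -0.94), and that for LPS was also lost without LPS cell library 1 (edgeR, adjusted p = 0.054). let-7e was also lower in all 4 conditions, with log2 changes of -0.87 ± 0.33 after LPS, -1.83 ± 0.35 after IL-10, -1.54 ± 0.35 after TGF-β and -1.43 ± 0.34 in controls (edgeR, adjusted p = 0.044, 0.00012, 0.00084 and 0.0015). Against the family total its change shrank to between -0.31 and -0.08, and 0 of these 4 passed on that scale. With DESeq2's size factors or a mean of at least 50 counts the calls after LPS, after TGF-β and in controls were lost as well. The LPS call was also lost under the replicate block and without any 1 of 4 of its 6 libraries (LPS cell libraries 1, 2 and 3 and LPS EV library 3), and the control call without control cell library 2.

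Other members were lower in EVs than in cells in some conditions. let-7g was lower after LPS (-1.56 ± 0.38), IL-10 (-2.08 ± 0.47) and TGF-β (-1.74 ± 0.46), with adjusted p of 0.0024, 0.00071 and 0.0036 in edgeR, against -0.11 ± 0.38 in controls (edgeR, adjusted p = 0.82). let-7i and let-7j were lower after IL-10 (-1.34 ± 0.44 and -1.68 ± 0.49; edgeR, adjusted p = 0.015 and 0.0067) and after TGF-β (-2.43 ± 0.52 and -2.70 ± 0.57; edgeR, adjusted p = 0.00038 and 0.00037). let-7j in TGF-β EVs rests on 3 counts, a ratio to cells of 0.154 with a counting interval of 0.0317 to 0.450. let-7d was lower after IL-10 (-1.17 ± 0.35; edgeR, adjusted p = 0.0078) and in controls (-1.21 ± 0.35; edgeR, adjusted p = 0.0072), and let-7b passed in no condition, at -0.73 to -0.16. These calls were less steady than those of mir-98 in controls. The let-7d calls held under 5 of 10 settings for IL-10 and 6 for controls, were each lost without any 1 of the 3 cell libraries, and changed sign on the family scale. After IL-10 let-7i and let-7j held under 5 settings each, and were lost without any 1 of the 3 IL-10 cell libraries for let-7i and without IL-10 cell library 2 for let-7j. The calls of let-7g held under 9 settings for LPS, 8 for IL-10 and 6 for TGF-β, and after TGF-β those of let-7i and let-7j under 8 and 7, with no call among these 5 lost when 1 library was left out.

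let-7k was the only member called higher in EVs than in cells, after IL-10, at a log2 change of 2.97 ± 0.92 (edgeR, adjusted p = 0.010). All of its 11 counts there lie in IL-10 EV library 3, and without that library the fitted value was -7.43 (edgeR, adjusted p = 0.16) with 0 counts left. These EV against cell values depend on the scaling more than any other. With library totals in place of TMM factors the medians were -1.14 after LPS, -2.81 after IL-10, -2.99 after TGF-β and -2.68 in controls, and the calls over all precursors in controls were 55 higher and 170 lower, against 73 higher and 35 lower with TMM. On the family scale let-7g in controls was higher in EVs, at 1.23 (edgeR, adjusted p = 0.010), as were let-7i at 1.20 and let-7j at 1.19, where the median precursor was at 1.01.

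**Figure D5:**
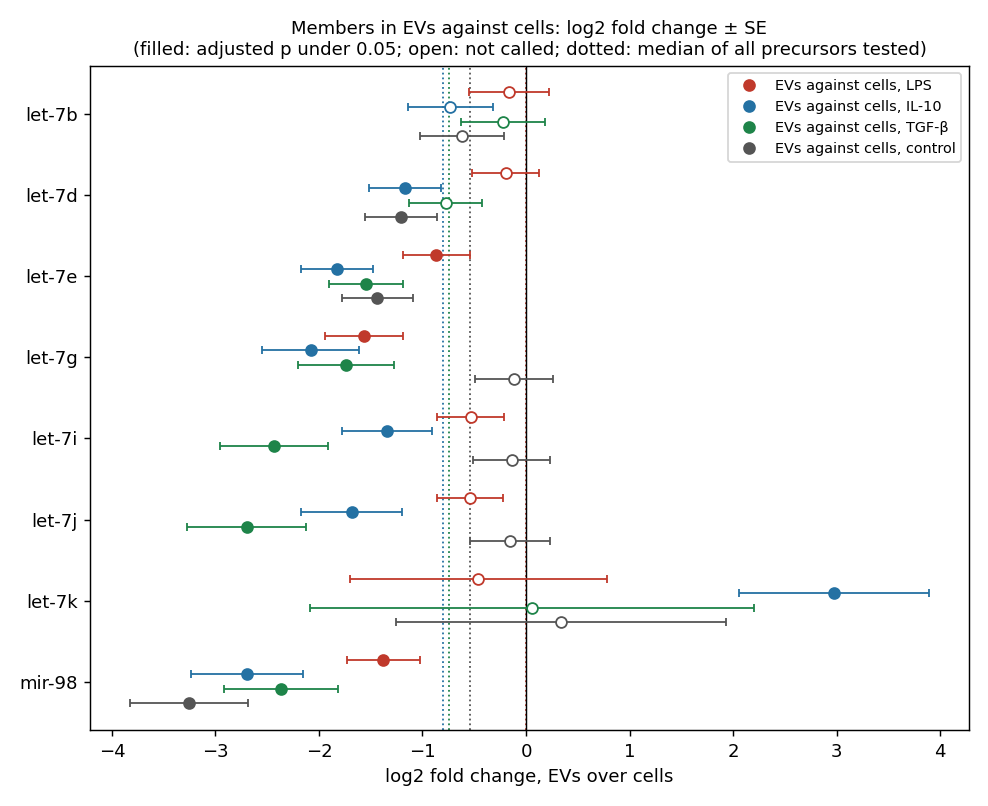
Log2 fold change of the 8 members in EVs over cells (horizontal axis; bars are the SE) after LPS, IL-10, TGF-β and in controls, filled where the adjusted p was under 0.05; dotted lines mark the median of all precursors tested, which is at 0 after LPS. mir-98 and let-7e are filled on the low side in all 4 conditions, let-7b in none, and let-7k is filled on the high side after IL-10 from 1 library.

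Whether a treatment changed a member differently in EVs and in cells was tested as an interaction, EVs minus cells. For let-7i and let-7j after TGF-β the differences were -2.30 ± 0.67 and -2.55 ± 0.75 on the log2 scale, and neither passed (edgeR, adjusted p = 0.086 for each). let-7g had -1.45 ± 0.54 for LPS, -1.97 ± 0.61 for IL-10 and -1.62 ± 0.61 for TGF-β (edgeR, adjusted p = 0.084, 0.24 and 0.21). No member was called, 0 of 8 each, where 6.07% of precursors were called for LPS, 0% for IL-10 and 0% for TGF-β (edgeR). At an unadjusted p under 0.05 there were 3, 2 and 3 members, against 28.2, 12.9 and 10.7% of all precursors. DESeq2's Wald test called let-7g in each of the 3 interactions, at adjusted p of 3.6e-08 for LPS, 0.017 for IL-10 and 0.033 for TGF-β, and no other member. The LPS interaction of let-7g was also called by edgeR with DESeq2's size factors (adjusted p = 0.019), on the family scale (adjusted p = 0.011) and with a mean of at least 50 counts (adjusted p = 0.0070), 4 of 10 settings in all.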

How the data were processed

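Small RNA was sequenced from BV2 cells and their EVs with 3 libraries in each of 8 groups. The authors deposited counts, whole and not normalized, for each microRNA precursor. The sources used here give no aligner, annotation or build, and DESeq2 is named, without a version, per the submitters' processing notes. Of 8 deposited tables, 2 repeat others and 6 were used, and columns were placed in groups by their names. edgeR 4.0.16 in R 4.3.3 was fitted over every precursor, with TMM factors, filterByExpr at a minimum count of 10, the two-sided quasi-likelihood test and Benjamini-Hochberg adjustment, called under 0.05. There was 1 fit for cells, 1 for EVs and 1 for all 24 libraries. The procedure was tested on simulated data. DESeq2 1.42.0, other scalings and filters and the omission of each library were alternatives. Members, lists and named precursors were chosen with earlier results of these data known. Named were all members, the family's other copies, their cluster partners, precursors sharing a member's seed, and the 2 precursors outside the family closest to each member in cells by the root mean square difference of group means.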

Additional observations from a re-analysis of the deposited data

How the results depend on the processing

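The rise of let-7i and let-7j in TGF-β cells, against control and against LPS, kept its direction and call under all 10 settings and all 6 omissions of a library. The lower mir-98 in control EVs than in control cells held likewise. The other calls were less steady, and the shallow EV libraries limit every EV value. With library totals alone the number of members called was 5 for LPS against control in cells, 6 for LPS against IL-10, 6 for LPS against TGF-β, 7 for EVs against cells in controls, 7 after LPS and 2 for the LPS interaction. In the first 3 that scaling called 30 higher and 101 lower, 35 and 70, and 32 and 71 of all 259 precursors tested. In the last 3 it called 55 higher and 170 lower, 34 and 118, and 56 and 7 of all 280 precursors tested. On the scale of the family total the counts were 3 for LPS and 3 for IL-10 against control in cells, 1 for LPS against IL-10, 4 for LPS and 4 for IL-10 against TGF-β, 0, 2 and 1 for EVs against cells after LPS, IL-10 and TGF-β, and 1 for the LPS interaction. In the same order, all precursors gave 48 higher and 30 lower, 4 and 56, 80 and 9, 59 and 19, and 13 and 30 in cells. EVs against cells gave 92 and 6, 107 and 0, and 95 and 1, and the LPS interaction 3 and 28. Without a filter there were 2 for LPS against control (let-7b and let-7d, not let-7g) and 1 for IL-10 against TGF-β in cells. A mean of at least 50 counts gave 1, 3 and 1 for EVs against cells in controls, after IL-10 and after TGF-β, and 1 for the LPS interaction. DESeq2's size factors gave 1, 3 and 2 in these EV comparisons and 1 for the LPS interaction, and its Wald test gave 3 after IL-10, 1 after TGF-β and 1 in each interaction. Leaving out mir-6236 and mir-6240 gave 5 for EVs against cells after LPS. Fitting only the groups compared gave 2 for LPS against control in cells and 3 for EVs against cells after IL-10. Keeping 1 copy per numbered set, chosen after seeing the data, gave 3 for LPS against control and 4 for LPS against TGF-β. Over all precursors the calls under the 10 settings numbered 64 to 103 for LPS and 30 to 43 for IL-10 against TGF-β in cells. Ranges for the other comparisons are below. The member counts are thus not read as particular to the members, and the cause of these shifts was not tested.

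Called values that changed sign did so mostly on another scale. With library totals let-7e and let-7j were at -0.28 and -0.28 for LPS against control in cells. On the family scale IL-10 against control gave -0.27 for let-7b, -0.19 for let-7d and -0.40 for mir-98, and TGF-β against control -0.18 for let-7d. There let-7e was at 0.011 for LPS against IL-10 and 0.11 for LPS against TGF-β. For EVs against cells the family scale gave 0.14 for let-7d, 1.23 for let-7g, 1.20 for let-7i and 1.19 for let-7j in controls, 0.84 for let-7b, 0.34 for let-7d and 0.11 for let-7i after IL-10, and 1.09 for let-7b after TGF-β. DESeq2's Wald test gave 0.72 for let-7g in controls (adjusted p = 0.0069), and leaving out a library gave -7.43 (IL-10 EV library 3) to 3.49 for let-7k after IL-10. The cause was not tested.

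With 1 library left out, 0 to 1 members were called for LPS and 0 to 1 for IL-10 against control in cells, 2 to 2 for TGF-β, 0 to 3 for LPS against IL-10, 2 to 4 for LPS against TGF-β and 0 to 3 for IL-10 against TGF-β. EVs against cells gave 1 to 6 in controls, 1 to 3 after LPS, 3 to 8 after IL-10 and 5 to 7 after TGF-β, and treatments in EVs and interactions gave 0 to 0. Calls over all precursors moved by over 1.5 times in most comparisons. In cells the counts over the other settings were 70 to 131 around 83 for LPS, 16 to 60 around 20 for IL-10 and 15 to 35 around 17 for TGF-β against control. In EVs against control they were 4 to 16 around 13 for LPS and 0 to 4 around 3 for TGF-β. Between treatments in EVs they were 10 to 23 around 17 for LPS against IL-10 and 11 to 34 around 22 for LPS against TGF-β. For EVs against cells they were 41 to 152 around 86 after LPS, 26 to 219 around 121 after IL-10, 30 to 215 around 121 after TGF-β and 19 to 225 around 108 in controls. For the interactions they were 16 to 63 around 17 for LPS, 0 to 4 around 0 for IL-10 and 0 to 8 around 0 for TGF-β. Library totals turned 54 higher and 29 lower calls for LPS against control in cells into 30 higher and 101 lower. With 1 library left out, the count over all precursors against control in cells was 65 to 86 for LPS, 5 to 21 for IL-10 and 14 to 19 for TGF-β. Between treatments in cells it was 82 to 91 for LPS against IL-10, 76 to 92 for LPS against TGF-β and 27 to 37 for IL-10 against TGF-β. In EVs it was 0 to 11 for LPS and 0 to 4 for TGF-β against control, 1 to 17 for LPS against IL-10 and 13 to 21 for LPS against TGF-β. For EVs against cells it was 55 to 84 after LPS, 79 to 148 after IL-10, 92 to 135 after TGF-β and 68 to 136 in controls. For the interactions it was 13 to 32 for LPS, 0 to 1 for IL-10 and 0 to 4 for TGF-β.

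The labels do not say whether the column numbers pair the samples. Same-numbered libraries correlated at -0.24 to 0.34 in cells and -0.39 to 0.23 in EVs, over 0.1 in 5 of 18 pairs each. Differently numbered libraries were over 0.1 in 10 of 36 pairs in cells and 9 of 36 in EVs. With 3 libraries per group these correlations cannot decide whether the numbers are pairs. A fit with the number as a replicate block, added after seeing the data, called 2 members for TGF-β against control in cells as without it. Under the block the call of let-7e for EVs against cells after LPS was lost, and let-7b was called for LPS against TGF-β in cells.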
